A study of Mus musculus with 12 samples.

Results

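Gene expression of wild type (WT) mouse embryonic fibroblasts (MEFs), mesenchymal cells grown out of mouse embryos, was compared with that of triple knockout (TKO) MEFs, in which Rb1, p107 (Rbl1) and p130 (Rbl2) are deleted. The comparison used the 3 arrays titled WT and the 3 titled TKO, which are 6 of the 12 arrays of the study. The other arrays were of MEFs titled Rb1KO, for a deletion of Rb1, and of TKO MEFs that also carry mutated Ras (TKO-Ras), 3 of each. They entered the estimate of the spread between replicates and the choice of probe sets, and a few of their values are given beside those of TKO MEFs. All MEFs were untreated and growing exponentially when total RNA was taken with Trizol. Genes were taken from the 45037 probe sets that are not controls of the manufacturer, and of the probe sets of each of 18193 genes the one with the highest average over the 12 arrays was used. The TKO MEFs came from another laboratory, and the labels do not say whether the replicates of a line were separate embryos or cultures, so the p-values measure only the spread between these RNA samples. The loss of the 3 genes and any other difference between the WT and TKO lines cannot be told apart.

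The proteins encoded by Rb1, Rbl1 and Rbl2 are pocket proteins, which bind E2F transcription factors and hold back the genes that E2F switches on. Cyclin-dependent kinases release this block when a cell commits to divide, and fibroblasts without all pocket proteins cannot impose it. Besides replication and mitosis genes, E2F and the pocket proteins bind the promoters of many genes of chromatin, RNA processing and differentiation.

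Values are given on the log2 scale, on which a difference of 1 is a 2-fold change, and every adjusted p is from limma adjusted over the 45037 probe sets after Benjamini and Hochberg. A gene was called higher or lower at an adjusted p under 0.05. In all, 2472 of the 18193 genes (13.6%) were higher in TKO MEFs and 1802 (9.90%) were lower. At 2-fold or more, 796 genes (4.38%) were higher and 763 (4.19%) were lower. The median log2 fold change of all genes was 0.05. With cyclic loess between arrays the balance of calls turned, to 2065 higher and 2179 lower. Background was set at 5.13, the level below which 95% of the values of 44 olfactory receptor probe sets lie. A group with all its arrays at or below that level gives only a lower bound of a fold, written as at least N-fold. In bulk RNA, fewer cells that use a gene and less RNA of it per cell cannot be told apart.

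WT replicate 3 stood apart from the other WT arrays, with correlations across probe sets of 0.9777 and 0.9695 against 0.9946 between the other two. Pairs of TKO arrays correlated at 0.9907 to 0.9937, and pairs of a WT and a TKO array at 0.9520 to 0.9676. Of the deleted genes, Rbl1 was 8.23, 8.32 and 8.18 on the WT arrays and 4.79, 5.12 and 4.42 on the TKO arrays, all at background. Rbl2 and Rb1 were lower by 2.27 and 1.36 on the log2 scale. Rb1 kept a signal of 6.97, 7.02 and 7.43 on the TKO arrays, while Rbl2 was 5.37, 5.27 and 5.71, just above background. Rbl2 was also 3.80 to 4.47 on the Rb1KO arrays, below background, and the cause was not tested. The labels do not give the deleted parts, and a probe set outside them can keep a signal.

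The most abundant fibroblast markers were high in both lines. Vim, an intermediate filament of mesenchymal cells, was 14.40, 14.47 and 14.13 on the WT arrays and 14.26, 14.19 and 13.94 on the TKO arrays. Col1a2, a chain of type I collagen, was the most abundant fibroblast marker, at 14.66 to 14.92 on the WT arrays and 14.17 to 14.34 on the TKO arrays (log2 fold change -0.53, adjusted p = 0.011). Thy1, a surface protein of fibroblasts, was above 10 on every WT array and below background on every TKO array. Of the 17 fibroblast markers 6 were lower, 1 was higher and 10 did not pass, and the higher one, Dcn, did not pass without WT replicate 1, WT replicate 2, TKO replicate 2 or TKO replicate 3. The count of higher markers was 5 without WT replicate 3 and 2 without TKO replicate 1. Lum and Fap, also on that list, were at or below background on average in WT MEFs.

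Marker lists of other cell types had mean levels near background, with single members above it. The mean level of the 17 measured markers of neurons and glia was 4.91 to 5.17 on the WT arrays and 5.06 to 5.17 on the TKO arrays, and 7 of them were at background in both lines. For the 16 markers of macrophages and leukocytes the ranges were 4.67 to 4.76 and 4.82 to 4.87, for the 15 of endothelium 4.83 to 4.98 and 5.11 to 5.21, and for the 15 of epithelium 4.91 to 5.23 and 5.17 to 5.27. The pan-leukocyte marker Ptprc, the endothelial marker Pecam1 and the muscle factor Myod1 were below background in both lines. Of the neural markers 1 was lower and the most abundant, Stmn2, had means of 8.60 and 9.76 in WT and TKO MEFs, and of the epithelial markers 2 were higher, 1 of them Cdh1 (log2 fold change 0.94), and Krt19 had means of 7.38 and 8.40. Stmn2 and Krt19 did not pass. Of the macrophage markers 2 were higher, Cd14 (means of 6.55 and 7.80) and Cd68 (log2 fold change 0.96). Of the endothelial markers 3 were higher, 1 of them by 2-fold or more, and among them was Egfl7 (means of 7.22 and 8.01). The endothelial count was 1 without WT replicate 1, WT replicate 2 or TKO replicate 3. The epithelial count of higher markers was 1 without WT replicate 1, WT replicate 2, TKO replicate 1 or TKO replicate 2. Muscle markers had mean levels of 5.13 to 5.84 and 5.04 to 5.23, with 1 of 15 lower, the smooth muscle protein Cnn1 (log2 fold change -3.87; -3.24 without WT replicate 2, -4.92 without WT replicate 3 and -3.26 without TKO replicate 3), or 2 of 15 without WT replicate 3. Cartilage and bone markers had mean levels of 5.58 to 5.76 and 5.23 to 5.38, with 2 of 14 lower, Col11a1 (log2 fold change -1.79) and Col2a1. Adipocyte markers had mean levels of 5.22 to 5.46 and 5.38 to 5.65, with 1 of 10 higher and 1 lower, Pparg (log2 fold change -1.19). The most abundant, Fabp4, did not pass (log2 fold change 1.20, adjusted p = 0.071). The part of such cells in the results was not tested.

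The genes with the largest changes encode secreted and surface proteins, enzymes and patterning factors. Cxcl5, a chemokine that attracts neutrophils, was 3.50, 3.28 and 4.92 on the WT arrays and 12.13, 13.14 and 12.95 on the TKO arrays. It was at background in WT MEFs and at least 195-fold higher in TKO MEFs (adjusted p = 5.9e-07), and lay between 5.72 and 7.02 on the TKO-Ras arrays. Mmp3, a matrix protease, was 3.91, 4.85 and 4.10 on the WT arrays and 10.21, 12.86 and 12.54 on the TKO arrays, at least 107-fold higher (190 without TKO replicate 1). TKO replicate 1 was the lowest TKO array for both genes and also for the collagenase Mmp13 (at least 29.2-fold higher; 56.7 without TKO replicate 1 and 19.1 without TKO replicate 3). The homeobox genes Hoxd13, Hoxa9 and Hoxa10, which mark position along the limb and body axis, were at background in WT MEFs and at least 68.1-, 26.6- and 18.5-fold higher. Fndc3c1 rose by 5.28 (adjusted p = 5.4e-07) from 5.03, 4.56 and 5.57 on the WT arrays, near background. Igfbp6, which binds insulin-like growth factors, rose by 4.57 (adjusted p = 4.3e-07), and Cxadr, the coxsackievirus and adenovirus receptor, by 4.21 (adjusted p = 8.8e-05). The RNA-binding protein Elavl2, best known in neurons, was 5.57, 4.92 and 2.70 on the WT arrays, with a mean below background. It rose by 5.33, or by 4.49 without WT replicate 3. Without WT replicate 1 the WT arrays left were at background, so that rise has only a lower bound.

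Genes with the largest falls were mostly abundant in WT MEFs and near background in TKO MEFs. Igfbp2, another binding protein of insulin-like growth factors, was 14.20, 14.19 and 13.46 on the WT arrays and 4.02, 6.01 and 3.94 on the TKO arrays (log2 fold change -9.29, adjusted p = 2.9e-07). Without TKO replicate 2 the TKO arrays left were at background, so that fall has only a lower bound. Efemp1, a matrix glycoprotein, was 11.77, 11.55 and 13.38 on the WT arrays and did not exceed background on any TKO array, a fall of at least 137-fold. Maoa, which breaks down monoamines, was 12.74, 12.93 and 10.59 on the WT arrays and 5.31, 5.07 and 5.33 on the TKO arrays (log2 fold change -6.85, or -7.60 without WT replicate 3). No TKO array reached the lowest WT array for any of these genes, which was a condition of their choice. Sorbs2, an adaptor of actin and focal adhesions, had a log2 fold change of -6.44 (-7.30 without WT replicate 3), and Col4a5, a basement membrane collagen, one of -5.88. Cd302, a lectin-like receptor, and Map2, a protein that binds microtubules, did not exceed background on any TKO array, falls of at least 52.6- and 38.3-fold. Cthrc1, a secreted protein of matrix-forming cells, had a log2 fold change of -5.36 (-4.64 without WT replicate 2 and -6.53 without WT replicate 3), and Cemip, which takes part in the breakdown of hyaluronan, one of -5.08 (-6.05 without WT replicate 3). Xist, the noncoding RNA of the inactive X chromosome, was 10.73, 8.79 and 11.57 on the WT arrays and at background on the TKO arrays, at least 37.6-fold lower (64.9 without WT replicate 2 and 24.7 without WT replicate 3). Eif2s3y, a gene of the Y chromosome, was 8.63, 9.12 and 4.91 on the WT arrays and 3.26, 3.18 and 3.06 on the TKO arrays. WT replicates 1 and 2 had both genes above background, WT replicate 3 had Xist above and Eif2s3y below background, and all TKO arrays had both below background. The sex of the embryos behind each line was not given, and its part in the comparison was not tested.

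**Figure D1:**
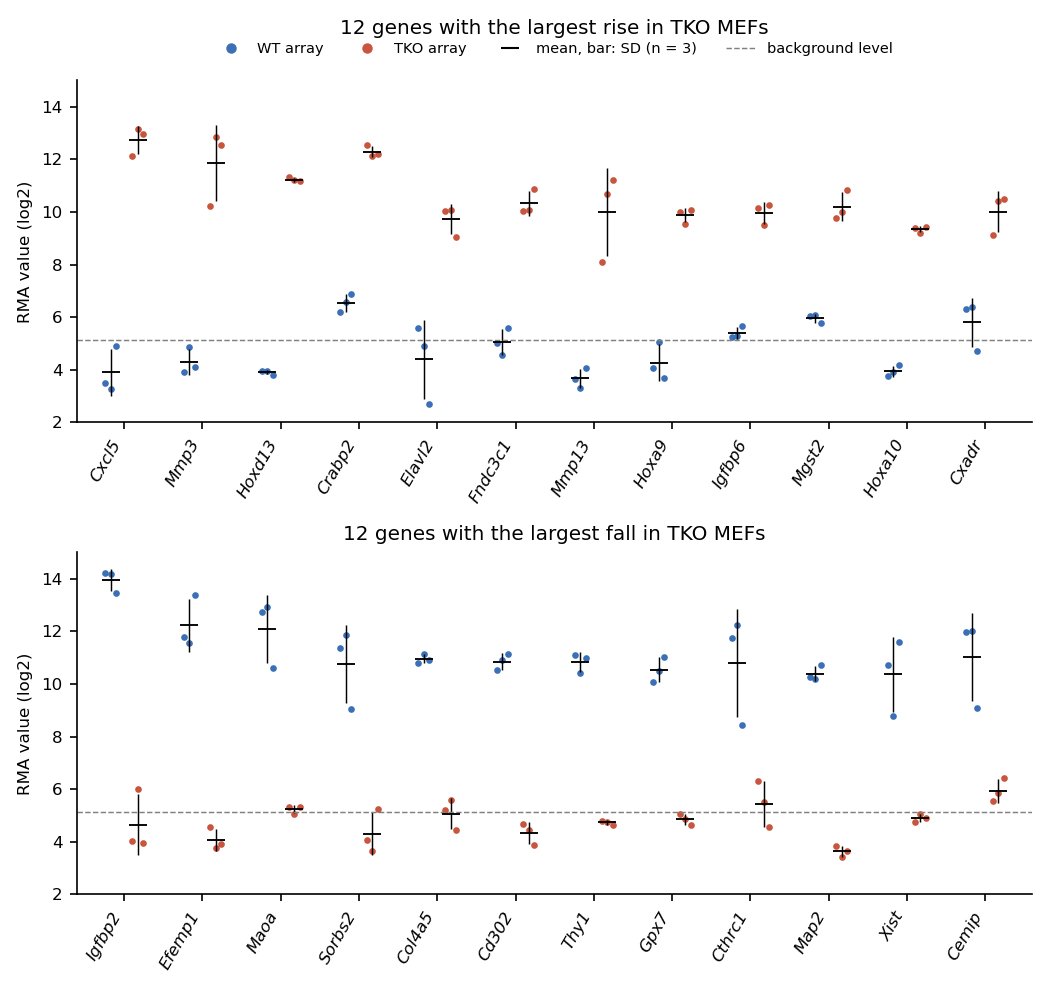
RMA values (log2, vertical axis) of the 12 genes with the largest rise and the 12 with the largest fall in TKO MEFs outside the cell cycle genes and the Dlk1-Dio3 genes, with a point for each array, a dash and bar for the mean and SD (n = 3), and the background level, 5.13, as a dashed line. Only genes called without overlap of the groups were ranked, so the WT and TKO arrays of each lie apart by choice. For Igfbp2 they lie at 13.46 to 14.20 in WT and 3.94 to 6.01 in TKO MEFs.

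Genes could also be sorted by whether they crossed the background level. A total of 67 genes were at or below 5.13 on every WT array and above it on every TKO array, and 57 of them were called higher, 34 of them by at least 2-fold. In the other direction 141 genes were above background on every WT array and at or below it on every TKO array, and 129 of them were called lower, 89 of them by at least 2-fold. Since every array has to lie on its side of background, leaving out any array can only raise these counts. They rose most without WT replicate 3, to 131 and 216, and without another array to between 79 and 98 and between 160 and 173. Among the genes switched off by this measure was Sox11, a factor of embryonic progenitors, at 10.31, 10.54 and 8.96 on the WT arrays and 3.35, 3.29 and 3.65 on the TKO arrays (at least 27.9-fold lower). Among those switched on was Hs3st1, which adds a sulfate to heparan sulfate, at 4.64, 4.88 and 4.64 on the WT arrays and 8.39, 9.15 and 9.43 on the TKO arrays (at least 14.5-fold higher).

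Besides single genes, 34 lists of pathways and gene classes were counted, with 1100 measured members. The members called higher were most frequent in the lists of splicing, chromatin and the nuclear pore. Of 31 measured genes of pre-mRNA splicing 26 were higher and none was lower, and of 32 genes of chromatin architecture and histone chaperones 24 were higher and none was lower. The members called lower were most frequent among lysosomal genes, with 15 of 31, and among integrins and focal adhesion proteins, with 16 of 39. These counts stand beside the 13.6% of all genes that were higher and the 9.90% that were lower.

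**Figure D2:**
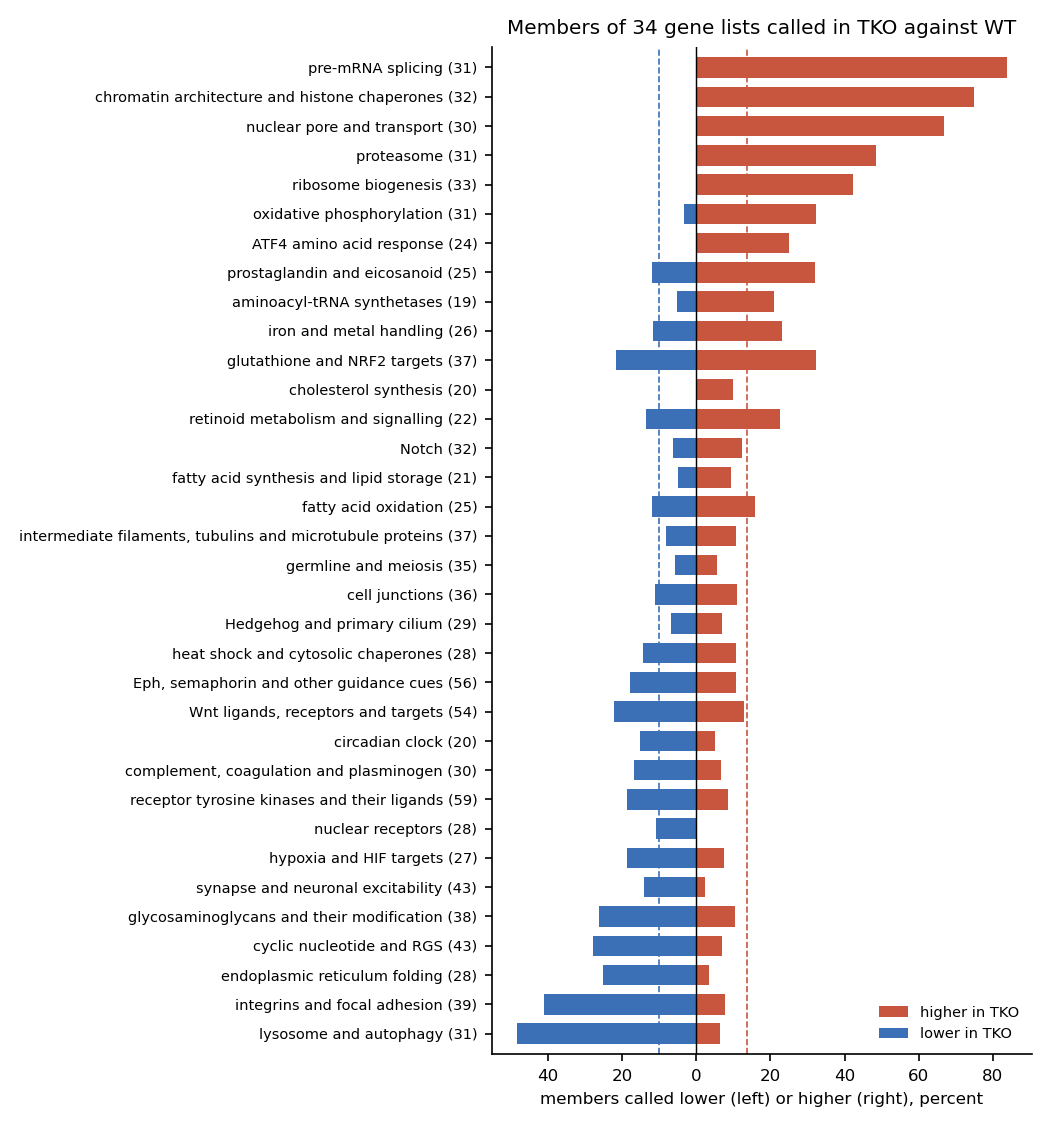
Share of the measured members of each of 34 gene lists (number measured in parentheses) called higher in TKO MEFs (bars to the right of 0) or lower (bars to the left), in percent, with dashed lines at the shares over all genes, 13.6% higher and 9.90% lower. The splicing list has the longest bar to the right and the lysosome list the longest to the left.

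Of the 32 genes that shape chromatin 24 were higher, 16 of them by 2-fold or more, and 8 did not pass, and the list median log2 fold change was 0.94, against 0.05 over all genes. Hirip3, a partner of the histone chaperone HIRA, was 8.62, 8.49 and 8.32 on the WT arrays and 10.49, 10.49 and 10.51 on the TKO arrays (log2 fold change 2.02, standard error 0.11, adjusted p = 7.2e-07). Hells, a remodeller of the SNF2 family that is needed for DNA methylation, was 9.90, 9.26 and 9.47 on the WT arrays and 11.35, 11.52 and 11.52 on the TKO arrays (log2 fold change 1.92, adjusted p = 7.7e-06). For both genes every TKO array lay above every WT array, which was a condition of their choice. Chaf1b, a subunit of the complex that lays down histones behind the replication fork, rose by 1.83 on the log2 scale, and Atad2, a bromodomain protein, by 1.82. The histone chaperones Asf1b and Nasp rose by 1.47 and 1.36, and the DNA-bending protein Hmgb2 by 1.67. Genes of the nuclear lamina were among the higher ones, with 1.14 for Lmnb1, 1.42 for Lmnb2 and 1.40 for the lamin B receptor Lbr, while the A-type lamin gene Lmna did not pass (0.27). The heterochromatin protein Cbx5 rose by 1.01 and the histone variant H2ax by 1.40. The remodelling subunits Smarca4 and Smarcc1 had log2 fold changes of -0.06 and 0.04 and did not pass, and 1 of the 32 genes was lower with cyclic loess between arrays or when the probe sets of each gene were averaged.

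Of the 31 splicing genes 26 were higher and 5 did not pass, none changed by 2-fold or more, and their median log2 fold change was 0.55. Snrpf, a core protein of the spliceosome's small nuclear ribonucleoproteins, was 10.81, 10.64 and 10.33 on the WT arrays and 11.71, 11.58 and 11.36 on the TKO arrays (log2 fold change 0.96, adjusted p = 4.8e-04). Sf3a3, part of the U2 particle, rose by 0.94 and U2af1, which reads the end of the intron, by 0.92. The RNA-binding protein Hnrnpd rose by 0.88. The most abundant member, Hnrnpab, rose by 0.56 but did not pass when only the WT and TKO arrays were fitted. The core splicing factors Sf3b1 and Prpf8 did not pass (-0.02 and 0.17). With probe sets that carry a suffix for shared sequence left out, 15 of the splicing genes were higher and 1 was lower.

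Of 30 genes of the nuclear pore and of nuclear transport 20 were higher and none was lower, with 5 at 2-fold or more and a median change of 0.64 on the log2 scale. Nup85, a scaffold protein of the pore, was 9.58, 9.55 and 8.96 on the WT arrays and 11.07, 10.90 and 10.93 on the TKO arrays (log2 fold change 1.60, adjusted p = 2.8e-05). Its partners in the same outer ring complex, Nup43, Nup37 and Nup107, rose by 1.45, 1.34 and 0.87. Rcc1, which charges the transport factor Ran on chromatin, rose by 1.46, the exportin Xpo1 by 0.80 and Cse1l, which returns importins to the cytoplasm, by 1.02. The importins Kpnb1, Tnpo1, Kpna4 and Kpna1 had log2 fold changes between -0.30 and -0.10 and did not pass.

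The promoters of the higher genes were read for the sequence that E2F binds. RefSeq promoter windows of mouse build GRCm38.p6 were matched by symbol for 14452 of the 18193 genes, and the 250 bases before the start of transcription were searched on both strands for TTTCCCGC, TTTCGCGC, TTTGGCGC and TTTGCCGC. One of these was found in 455 of the 14452 promoters (3.15%), and in 3.94% of those of genes above background in a group. It was found in 6.69% of the promoters of higher genes, 8.36% of those higher by 2-fold or more, 3.4% of those of lower genes and 2.5% of those lower by 2-fold or more. With 132 measured genes of a cell cycle list and the Dlk1-Dio3 genes left out, the shares of higher genes were 6.28% and, at 2-fold or more, 7.32%. That list does not hold every gene tied to cell division, since Uhrf1 and the centromere gene Cenpm stayed in. These shares therefore do not separate cell cycle genes from the rest. Among the 29 splicing genes with a promoter 5 held a motif (17.2%), and among the 28 chromatin genes 2 did (7.14%). The motif TTTGAA, known as CHR and bound by complexes of the pocket proteins, was found in 14.1% of all promoters, 14.6% of those of higher genes and 12.8% of those of lower genes, and in 28.6% of those of the chromatin genes. The motifs are short, a match is a description of these letters and not a site of binding, and binding was not measured.

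The stretches around the motif are shown for the 6 genes with the largest rise outside the cell cycle list whose promoter holds 1, since they let the letters around it be compared. They are Uhrf1, which keeps DNA methylation after replication, on the plus strand of chr17:56304098-56304165, Cenpm, a centromere protein, on the minus strand of chr15:82244370-82244437, Hells on the plus strand of chr19:38930898-38930965, Hopx, a small homeodomain protein, on the minus strand of chr5:77115247-77115314, Fuom, a fucose mutarotase, on the minus strand of chr7:140102495-140102562, and Fam181b on the plus strand of chr7:93079756-93079823. Each is written 5′ to 3′ on the strand of the gene, with the motif in capitals.
Fam181b: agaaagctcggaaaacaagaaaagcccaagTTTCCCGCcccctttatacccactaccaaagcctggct
Uhrf1: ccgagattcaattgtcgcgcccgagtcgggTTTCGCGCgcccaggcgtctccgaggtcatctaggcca
Cenpm: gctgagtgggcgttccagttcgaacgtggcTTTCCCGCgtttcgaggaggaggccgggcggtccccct
Hopx: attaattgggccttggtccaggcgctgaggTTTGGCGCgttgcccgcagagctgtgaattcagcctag
Hells: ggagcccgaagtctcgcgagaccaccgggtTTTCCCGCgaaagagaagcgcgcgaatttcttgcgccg
Fuom: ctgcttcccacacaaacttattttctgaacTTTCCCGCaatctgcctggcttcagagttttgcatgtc
The motif began 62 bases before the start of transcription in Hells, 71 in Cenpm, 91 in Fuom, 93 in Fam181b, 161 in Hopx and 185 in Uhrf1. The log2 fold changes of these genes were 2.36 for Fam181b, 2.17 for Uhrf1, 2.13 for Cenpm, 2.12 for Hopx, 1.92 for Hells and 1.87 for Fuom. Fam181b, Cenpm, Hells and Fuom hold the same 8 letters and differ around them.

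Genes of ribosome making and of the proteasome were higher in part. Of 33 nucleolar genes 14 were higher and none was lower, and the median of their log2 fold changes was 0.56. Tcof1, which aids transcription of ribosomal DNA, was 8.02, 7.52 and 7.76 on the WT arrays and 8.91, 9.04 and 8.81 on the TKO arrays (log2 fold change 1.16, adjusted p = 1.0e-04). Fbl, which methylates ribosomal RNA, rose by 1.08 and Rrp1b by 1.01. The count was 9 without TKO replicate 1 or TKO replicate 2 and 8 with only the WT and TKO arrays in the fit, and the median was 0.29 without WT replicate 3. Of 31 proteasome subunits 15 were higher, none by 2-fold, and none was lower, with a median of 0.35. Psma6, a subunit of the core ring, was 12.22, 12.02 and 11.81 on the WT arrays and 12.99, 12.91 and 12.72 on the TKO arrays (log2 fold change 0.86, adjusted p = 3.7e-04), and Psmb6, Psmd12 and Psmd3 rose by 0.66, 0.66 and 0.63. The count was 9 without TKO replicate 1 and 8 with only the WT and TKO arrays or without probe sets that carry a suffix.

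Of 31 respiratory chain and ATP synthase subunits 10 were higher and 1 was lower, with a median of 0.21. Ndufa9 of complex I was 11.21, 11.10 and 11.28 on the WT arrays and 12.20, 11.98 and 12.05 on the TKO arrays (log2 fold change 0.88, adjusted p = 6.1e-05), and Cyc1 of complex III rose by 0.89. Sdha of complex II, which also works in the citric acid cycle, was the lower one, at 11.16, 11.20 and 11.20 against 10.41, 10.36 and 10.29 (log2 fold change -0.83, adjusted p = 1.0e-04). The count of higher subunits was 6 without WT replicate 2 or with cyclic loess, and 5 with only the WT and TKO arrays. Of 19 aminoacyl-tRNA synthetases 4 were higher and 1 was lower, with rises of 0.86 for Vars, 0.58 for Mars1 and 0.47 for Kars.

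Lysosomal and secretory pathway genes were lower in part. Of 31 genes of lysosomes and autophagy 15 were lower and 2 were higher, and the median of the list was -0.53 on the log2 scale. Ctsd, an aspartic protease of lysosomes, was 12.40, 12.47 and 12.53 on the WT arrays and 11.34, 11.36 and 11.77 on the TKO arrays (log2 fold change -0.98, adjusted p = 2.1e-04). Asah1, which splits ceramide, fell by 1.27, the proton pump subunit Atp6v0d1 by 0.97 and the cholesterol exporter Npc1 by 0.92. The most abundant member, the protease Ctsl, fell by 0.62 but did not pass with only the WT and TKO arrays in the fit, where the count of lower genes was 7. The count of higher genes was 1 without WT replicate 1, TKO replicate 2 or TKO replicate 3. Of 28 folding factors of the endoplasmic reticulum 7 were lower and 1 was higher. Fkbp14, a prolyl isomerase that acts on collagen, was 10.34, 10.52 and 10.96 on the WT arrays and 6.49, 6.66 and 6.63 on the TKO arrays (log2 fold change -4.01, standard error 0.20, adjusted p = 3.5e-07), and the disulfide isomerase Pdia5 fell by 1.54 and Dnajb9 by 1.11. The chaperone Hspa5, the most abundant of the list, did not pass (0.13).

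Among 28 heat shock proteins and cytosolic chaperones 3 were higher, or 5 without WT replicate 1 or with arrays centred on their median, and 4 were lower. In the main fit that is 10.7% and 14.3%, near the 13.6% and 9.90% of all genes. The small heat shock protein Hspb1 was 12.66, 13.10 and 10.33 on the WT arrays and 8.45, 7.94 and 8.19 on the TKO arrays (log2 fold change -3.84, or -4.69 without WT replicate 3). Cct5, a subunit of the chaperonin that folds actin and tubulin, rose by 0.66.

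**Figure D3:**
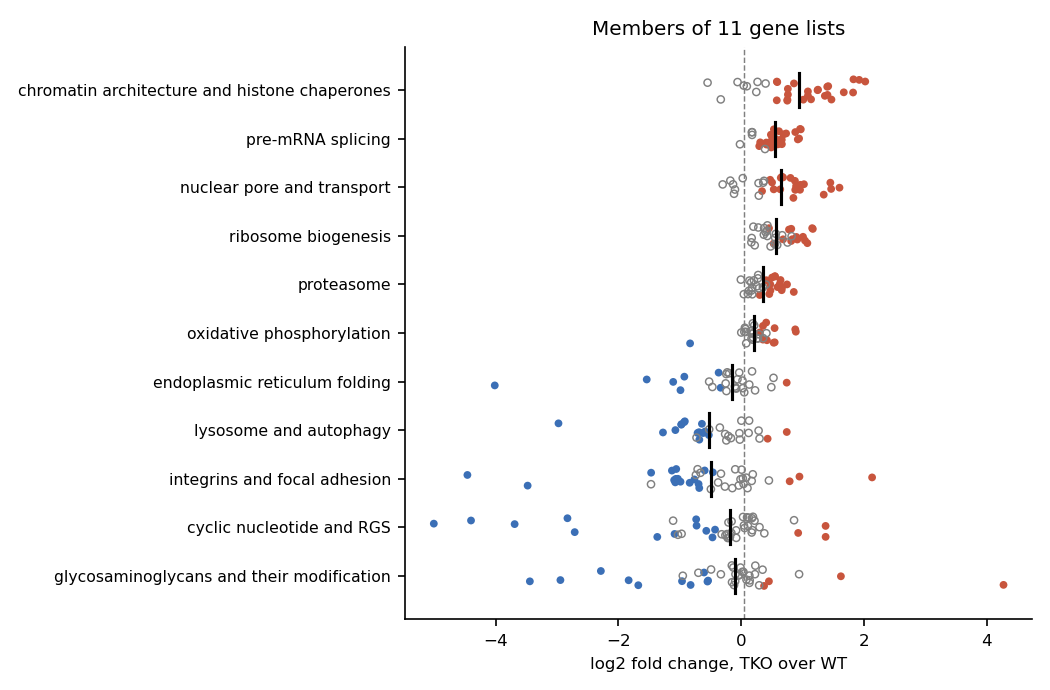
Log2 fold change, TKO over WT (horizontal axis), of the genes measured in 11 lists, filled where called higher (red) or lower (blue) and open where the gene did not pass, a black line at each list's median and a dashed line at the median of all genes, 0.05. The medians run from 0.94 for chromatin genes to -0.53 for lysosomal genes.

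Of 39 genes of integrins and of the proteins that tie them to actin 16 were lower, 9 of them by 2-fold or more, 3 were higher and 20 did not pass, and without WT replicate 3 the count of lower genes was 21. Itga8, a receptor chain for matrix proteins with an RGD motif, was 9.45, 9.86 and 7.96 on the WT arrays and 4.42, 4.35 and 5.14 on the TKO arrays (log2 fold change -4.46, adjusted p = 4.1e-05). Itga1, a collagen receptor chain, was 7.40, 7.26 and 9.31 on the WT arrays and at background on each TKO array, a fall of at least 7.24-fold (4.59 without WT replicate 3). WT replicate 3 was the lowest WT array for Itga8 and the highest for Itga1. Itgb5 fell by 1.03 on the log2 scale, the linker Tln1 by 1.13, the actin-binding protein Tns1 by 1.06 and the scaffold Pxn by 0.84. Itgb8, which takes part in the activation of TGF-beta, rose from 6.19, 5.46 and 5.69 to 7.45, 7.82 and 8.46 (log2 fold change 2.13, adjusted p = 1.4e-04). The most abundant member, the actin crosslinker Actn1, did not pass (-0.49).

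Of 38 genes of enzymes that build and trim glycosaminoglycans 10 were lower and 4 were higher. That is 26.3% and 10.5%, against 9.90% and 13.6% of all genes. Hs3st1 was the largest rise. Sulf1, which removes sulfates from heparan sulfate at the cell surface, was 11.36, 11.65 and 10.72 on the WT arrays and 8.30, 8.68 and 7.93 on the TKO arrays (log2 fold change -2.94, adjusted p = 2.5e-05). Hs6st2, which adds sulfate to heparan sulfate, fell by 2.28, and Chst15, which acts on chondroitin sulfate, by 1.83. Papss2, which makes the sulfate donor, fell by 1.68, and Chsy3, which extends chondroitin chains, was at background on each TKO array, a fall of at least 1.90-fold. The count of higher genes was 2 without WT replicate 1, TKO replicate 1 or TKO replicate 2, 2 with cyclic loess, and 1 with only the WT and TKO arrays.

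Of 36 junction genes 4 were higher and 4 were lower, or 9 lower without WT replicate 3. In the main fit that is 11.1% each way, near the 13.6% higher and 9.90% lower of all genes. Gja1, which encodes connexin 43, was 11.43 on each WT array and 13.31, 13.55 and 12.80 on the TKO arrays (log2 fold change 1.79, adjusted p = 3.4e-05), and the connexin gene Gjb5 rose by 2.05. Cldn1, a tight junction protein, was at background on each TKO array, a fall of at least 6.85-fold (4.43 without WT replicate 3), and Jam3 fell by 1.04. Of 37 genes of intermediate filaments and microtubules 4 were higher and 3 were lower, or 7 lower without WT replicate 3. Their shares in the main fit, 10.8% and 8.11%, were also near those of all genes. Map2 was among the lower ones, and Synm, an intermediate filament protein of muscle, and the centrosomal tubulin Tubg1 rose by 2.34 and 1.37.

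Wnt genes that were called included ligands, receptors and targets. Wnts are secreted proteins that act through Frizzled receptors, some by way of beta-catenin and some, such as Wnt5a through Ror receptors, without it. Wnt5a was 9.78, 9.91 and 10.62 on the WT arrays and 3.66, 4.06 and 3.36 on the TKO arrays, at least 31.4-fold lower (adjusted p = 3.6e-07). Its receptor gene Ror1 was 6.39, 6.51 and 8.94 on the WT arrays and 3.36, 3.16 and 3.27 on the TKO arrays, at least 4.43-fold lower (2.49 without WT replicate 3). Both genes were at background on every TKO array. Of the R-spondins, which strengthen Wnt signals, Rspo3 fell from 10.32, 10.45 and 10.09 to 6.82, 7.77 and 7.75 (log2 fold change -2.84, adjusted p = 0.0012). Rspo1 was at background in WT MEFs, at 3.72, 3.65 and 4.15, and 5.63, 6.31 and 7.35 on the TKO arrays, at least 2.46-fold higher. These members of one family thus moved in opposite directions.

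The ligand gene Wnt10b rose by 1.41 (adjusted p = 9.4e-05), and the secreted inhibitor Sfrp1 rose from 7.55, 7.08 and 8.83 to 9.37, 10.79 and 10.09 (log2 fold change 2.26, adjusted p = 0.0053). Axin2 and Notum, feedback inhibitors that beta-catenin switches on, rose by 1.32 and 1.17, while the targets Lef1, Nkd1 and Sp5 did not pass (0.44, -0.00 and 0.05). Ccn4, a Wnt target that encodes a secreted protein, fell by 0.74, and its relative Ccn5 by 1.90. Of the Frizzled receptors Fzd5, Fzd8 and Fzd3 had log2 fold changes of -1.23, -0.88 and -0.81, of which that of Fzd3 did not pass with only the WT and TKO arrays in the fit. Fzd7 had one of -0.50, with its call lost without WT replicate 2, TKO replicate 1 or TKO replicate 3, and Fzd1 one of 1.36, with its call lost without WT replicate 1, WT replicate 2 or TKO replicate 2. Ctnnb1, which encodes beta-catenin, was the most abundant gene of the list and did not pass (-0.00, adjusted p = 0.98). Of the 54 Wnt genes 7 were higher, all by 2-fold or more, and 12 were lower. That is 13% and 22.2%, against 13.6% and 9.90% of all genes. Without WT replicate 3 the count of higher Wnt genes was 11.

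Of 59 receptor tyrosine kinases and their ligands 5 were higher and 11 were lower, or 8 and 9 with arrays centred on their median. In the main fit that is 8.47% and 18.6%, against 13.6% and 9.90% of all genes. Kitl, the ligand of the receptor Kit, was 6.94, 6.68 and 7.0 on the WT arrays and 10.37, 10.65 and 11.19 on the TKO arrays (log2 fold change 3.86, adjusted p = 5.8e-07), and Kit itself did not pass (0.20). Gdnf, a survival factor of neurons and germ cells, was 5.80, 6.44 and 4.31 on the WT arrays and 8.96, 8.77 and 8.61 on the TKO arrays (log2 fold change 3.27, or 2.66 without WT replicate 3). Both were chosen among genes without overlap of the groups. Gas6, a ligand named for its rise in growth-arrested cells, fell from 10.01, 9.70 and 12.21 to 6.47, 8.28 and 6.90 (log2 fold change -3.42, or -2.64 without WT replicate 3), its receptor Mertk fell by 1.99, and its other receptors Axl and Tyro3 did not pass (-0.40 and 0.14). Pdgfrb, a receptor of platelet-derived growth factor on mesenchymal cells, fell from 12.43, 12.27 and 12.84 to 10.71, 11.10 and 11.18 (log2 fold change -1.52, adjusted p = 8.2e-05), while Pdgfra did not pass (0.25). The receptor genes Ddr1 and Erbb3 had log2 fold changes of -0.96 and 0.96. Leaving out 1 array gave 3 higher without WT replicate 2 and 9 without WT replicate 3, and 7 lower without TKO replicate 1 or TKO replicate 3 and 5 without TKO replicate 2.

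**Figure D4:**
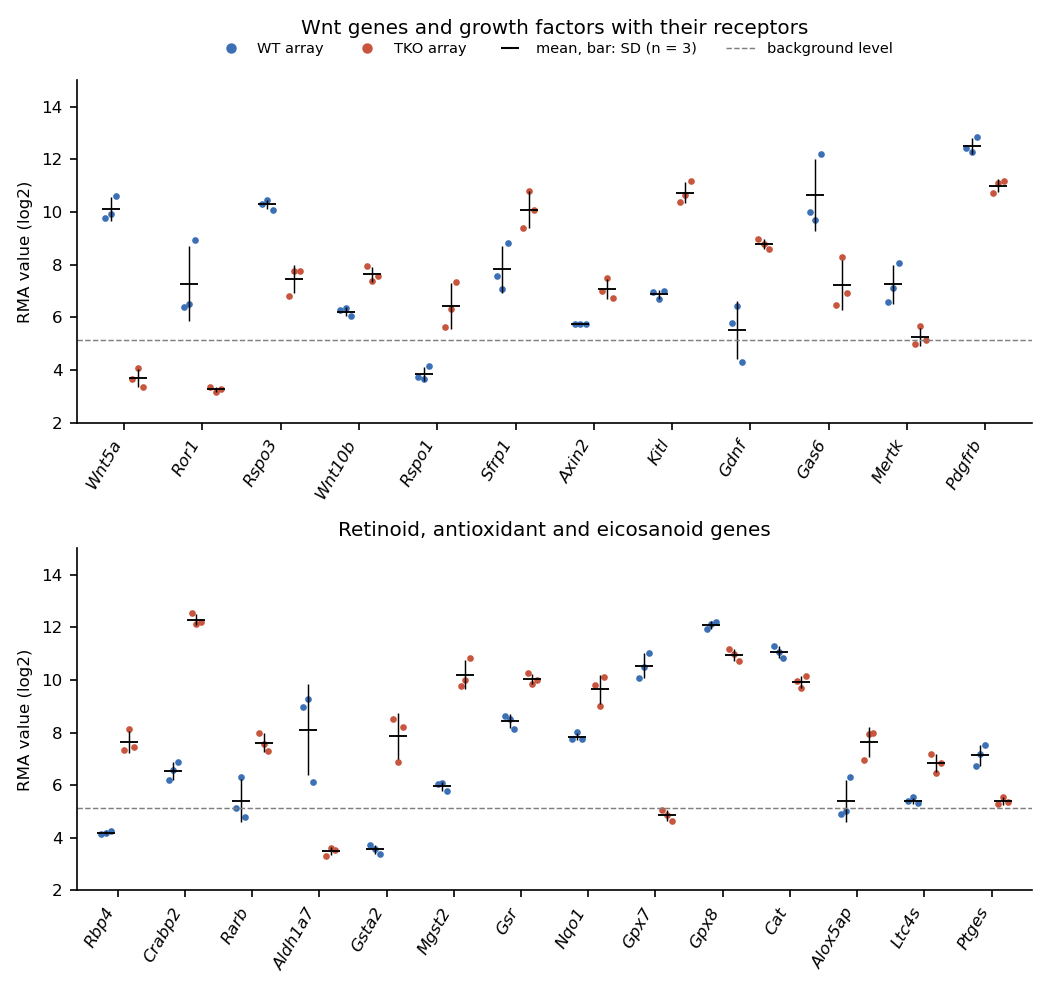
RMA values (log2, vertical axis) of Wnt genes, growth factors and receptors (top) and of retinoid, antioxidant and eicosanoid genes (bottom), with a point for each array, a dash and bar for the mean and SD (n = 3), and the background level, 5.13, as a dashed line. The 3 TKO arrays of Wnt5a lie at 3.36 to 4.06, below background, and those of Crabp2 at 12.13 to 12.53, above the WT arrays.

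Of 56 genes of guidance cues, which steer axons and migrating cells, 10 were lower and 6 were higher, or 11 higher without WT replicate 3. In the main fit that is 17.9% lower and 10.7% higher, against 9.90% and 13.6% of all genes. The Eph receptor gene Epha4 was 9.76, 10.26 and 8.95 on the WT arrays and 4.88, 4.78 and 4.76 on the TKO arrays, at least 23.0-fold lower (adjusted p = 5.4e-07). The ephrin genes Efnb1 and Efnb2 fell by 1.40 and 1.67, the semaphorins Sema3a and Sema6d by 1.49 and 1.74, and the netrin receptor Unc5c by 1.63. The 2 neuropilins, coreceptors of semaphorins and of vascular endothelial growth factor, moved apart. Nrp1 was 11.88, 12.32 and 11.42 on the WT arrays and 10.20, 9.93 and 9.42 on the TKO arrays (log2 fold change -2.02, adjusted p = 5.7e-04). Nrp2 was 9.0, 7.74 and 9.31 on the WT arrays and 10.69, 10.78 and 11.25 on the TKO arrays (log2 fold change 2.23, adjusted p = 5.2e-04).

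Of 43 genes of cyclic nucleotide and G protein signals, a list of makers, effectors and terminators, 12 were lower and 3 were higher. Npr3, the clearance receptor of natriuretic peptides, was 10.41, 10.45 and 9.10 on the WT arrays and 6.5, 4.4 and 4.05 on the TKO arrays (log2 fold change -5.0, adjusted p = 1.7e-04). Without TKO replicate 1 the TKO arrays left were at background, so that fall has only a lower bound. Pde5a, which breaks down cyclic GMP, was 8.42, 8.90 and 6.89 on the WT arrays and at background on each TKO array, a fall of at least 7.67-fold (11.5 without WT replicate 3). Rgs4, which speeds the shut-off of G proteins, was also at background on each TKO array, a fall of at least 6.15-fold. Pde8b, which breaks down cyclic AMP, had a log2 fold change of -2.83 (-3.44 without WT replicate 3), while its relative Pde8a rose by 1.37 and Rgs3 by 1.37. The adenylyl cyclases Adcy2 and Adcy6, which make cyclic AMP, fell by 0.73 and 0.57, and the call of Adcy2 was lost with only the WT and TKO arrays in the fit.

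Of 30 genes of coagulation, complement and plasminogen 5 were lower and 2 were higher, and with any 1 array left out or with cyclic loess at most 1 was higher. The higher ones, Cd55 and F5, had log2 fold changes of 0.58 and 0.36, and Cd55, which restrains complement on cells, was below background on every WT and TKO array and did not pass without WT replicate 1, WT replicate 2, WT replicate 3 or TKO replicate 3. Tfpi, which blocks the tissue factor pathway of clotting, was 10.45, 11.03 and 9.58 on the WT arrays and 7.34, 7.58 and 7.46 on the TKO arrays (log2 fold change -2.89, adjusted p = 3.4e-05). Procr, a receptor of protein C, fell by 1.38, and Cd59a, which stops the complement pore, had a log2 fold change of -2.92 (-3.51 without WT replicate 3). Thbd, which encodes thrombomodulin, was 10.92, 11.86 and 5.88 on the WT arrays and at background on each TKO array, a fall of at least 21.4-fold (13.4, 9.63 and 76.5 without WT replicates 1, 2 and 3), and did not pass with only the WT and TKO arrays in the fit.

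Of 22 genes of retinoid metabolism and signalling 5 were higher (22.7%) and 3 were lower (13.6%), against 13.6% and 9.90% of all genes. Crabp2, which carries retinoic acid to its receptors, was 6.20, 6.57 and 6.89 on the WT arrays and 12.53, 12.13 and 12.20 on the TKO arrays (log2 fold change 5.73, standard error 0.28, adjusted p = 3.5e-07). Rbp4, the carrier of retinol, was at background in WT MEFs, at 4.13, 4.20 and 4.26, and 7.33, 8.13 and 7.46 on the TKO arrays, at least 5.68-fold higher. The receptor gene Rarb, itself a known target of retinoic acid, was 5.14, 6.32 and 4.78 on the WT arrays and 7.99, 7.58 and 7.28 on the TKO arrays (log2 fold change 2.20, adjusted p = 0.0044), and Rarg rose by 0.57. In all of these genes the TKO arrays lay above the WT arrays, which for Crabp2, Rbp4 and Rarb was a condition of their choice. Aldh1a1, an enzyme that makes retinoic acid, and its close relative Aldh1a7 were at background in TKO MEFs. Aldh1a7 was at least 7.90-fold lower (15.8 without WT replicate 3), and Aldh1a1, on the same family of near-identical sequences and so uncertain as a single gene, at least 3.27-fold (2.07 without WT replicate 2 and 7.45 without WT replicate 3). Cyp26b1, which breaks down retinoic acid, was also lower (log2 fold change -1.04) but did not pass without WT replicate 1, WT replicate 3, TKO replicate 2 or TKO replicate 3. Aldh1a2, another enzyme that makes retinoic acid, was higher by 0.34 but below background on every WT and TKO array. Its call was lost without any array but WT replicate 2. Rdh10, which makes the retinal used by these enzymes, did not pass (0.43).

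Antioxidant genes moved in both directions. Of 37 genes of glutathione use and of targets of the transcription factor NRF2, 12 were higher and 8 were lower. Nfe2l2, which encodes NRF2, rose by 1.19 (adjusted p = 1.7e-04). Its target Nqo1, a quinone reductase, was 7.76, 8.0 and 7.77 on the WT arrays and 9.79, 9.03 and 10.10 on the TKO arrays (log2 fold change 1.79, adjusted p = 3.3e-04), and Gsr, which regenerates glutathione, rose by 1.60 and Gclm, which helps to make it, by 0.87. The transferase genes Mgst2 and Gsta2 had the largest rises. Mgst2 was 6.04, 6.09 and 5.77 on the WT arrays and 9.78, 9.99 and 10.82 on the TKO arrays (log2 fold change 4.23, adjusted p = 3.6e-05), and Gsta2, whose sequence is nearly that of other alpha class transferases, was at background in WT MEFs and at least 6.73-fold higher. Other transferase genes were lower, with log2 fold changes of -1.20 for Gstt3, -1.03 for Gstm5, and -0.79 for Gstk1, which did not pass without WT replicate 3, TKO replicate 1 or TKO replicate 2. Hmox1, another NRF2 target, fell by 1.04. The peroxidase Gpx7 of the endoplasmic reticulum was 10.07, 10.51 and 11.03 on the WT arrays and 5.07, 4.85 and 4.64 on the TKO arrays, at least 42.3-fold lower (adjusted p = 6.4e-08). Its relative Gpx8 fell by 1.14 and catalase (Cat) by 1.12. With only the WT and TKO arrays in the fit the counts were 7 higher and 5 lower.

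Of 25 genes of eicosanoids, lipid signals made from arachidonic acid, 8 were higher and 3 were lower. Alox5ap, which presents arachidonic acid to 5-lipoxygenase, was 4.89, 5.0 and 6.31 on the WT arrays and 6.97, 7.96 and 7.97 on the TKO arrays (log2 fold change 2.23, adjusted p = 0.0013), and Ltc4s, which makes leukotriene C4, rose by 1.42. Ptges, which makes prostaglandin E2, fell from 6.73, 7.18 and 7.52 to 5.28, 5.56 and 5.35 (log2 fold change -1.74, adjusted p = 3.6e-05), while its receptor Ptger4 rose by 2.10 (1.45 without WT replicate 3). Ptgis, which makes prostacyclin, had a log2 fold change of -3.91 (-3.32 without WT replicate 2 and -5.04 without WT replicate 3), and the abundant cyclooxygenase Ptgs2 did not pass (-1.18, adjusted p = 0.21). The counts were 5 higher without WT replicate 1 or without probe sets that carry a suffix, and 5 lower without WT replicate 3.

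Counts of the lists not yet described follow, beside shares of 13.6% higher and 9.90% lower over all genes. Of 20 enzymes of cholesterol synthesis 2 were higher and none was lower, although their median log2 fold change was 0.57, and the count of higher genes was 6 without WT replicate 3 and 1 without any other array. Their mean level ranged from 9.44 to 10.71 over the WT arrays and from 10.37 to 10.76 over the TKO arrays. Of 25 genes of fatty acid oxidation 4 were higher (16%) and 3 were lower (12%), near the shares of all genes. The count of lower genes was 1 without TKO replicate 2 and 5 with cyclic loess. The thioesterase Acot1 rose by 1.75 and Echs1 by 1.33. The metal-binding protein Mt2 and the iron transporter Slc11a2 rose by 1.34 and 1.22, in a list with 6 of 26 higher and 3 lower, or 1 lower without TKO replicate 1. Among 24 targets of the stress factor ATF4, 6 were higher and none was lower, or 1 lower without WT replicate 3, with 1.80 for Atf3, 1.43 for Cebpb and 1.22 for Stc2.

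Of 20 clock genes 1 was higher, or 2 without WT replicate 3, and 3 were lower, and Timeless, which also works at replication forks, rose by 1.81 while Cry2 fell by 0.87. Among 28 nuclear receptors 3 were lower and none was higher, or 1 higher without WT replicate 1, WT replicate 3 or TKO replicate 2 and 2 with arrays centred on their median, with Nr2f1, a factor of neural crest and other progenitors, at 11.15, 10.52 and 11.95 on the WT arrays and 8.86, 8.32 and 8.10 on the TKO arrays (log2 fold change -2.78, adjusted p = 8.8e-05) and Pparg, a factor of fat cells, lower by 1.19 on the log2 scale. Of 35 germline and meiosis genes 2 were higher and 2 were lower, or 1 lower without TKO replicate 2, and 9 were above background in either line. Of 32 Notch genes 4 were higher (12.5%) and 2 were lower (6.25%), and of 29 Hedgehog and cilium genes 2 (6.9%) and 2 (6.9%). Of 27 hypoxia genes 2 were higher (7.41%) and 5 lower (18.5%), and of 43 synaptic genes 1 (2.33%) and 6 (14%). All genes had 13.6% higher and 9.90% lower. Notch genes had 2 higher without TKO replicate 1, 4 lower without WT replicate 3, and 6 lower with cyclic loess, which turns their balance. Synaptic genes had 3 higher with arrays centred on their median. Hedgehog genes had 6 higher without WT replicate 3, 1 higher without WT replicate 2, TKO replicate 1 or TKO replicate 2, and 1 lower without any array but WT replicate 2. Hypoxia genes had at most 1 higher with any array left out, 3 lower without WT replicate 1 and 1 lower without TKO replicate 1. The Hedgehog receptor and target Ptch1 rose by 0.80, the protease Adam10, which cuts Notch, fell by 0.63, and the glutamate receptor Gria3 fell by 1.81.

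The share of higher genes differed between chromosomes. Among the 12402 genes above background in a line, 19.1% were higher and 13.8% were lower. On chromosome 15, 37.3% of 509 genes were higher and 6.09% lower, and on chromosome 11, 26.8% of 1041 genes were higher and 7.30% lower. On the X chromosome 24.2% of 380 genes were lower. The median difference from the WT mean over the genes of chromosome 15 was 0.29, 0.29 and 0.31 on the 3 TKO arrays, against 0.06, 0.05 and 0.05 over all these genes, and between -0.03 and 0.03 on the WT arrays. It was 0.03 to 0.07 on the Rb1KO arrays and 0.12 to 0.19 on the TKO-Ras arrays. On chromosome 11 it was 0.14 to 0.22 on the TKO arrays and 0.17 to 0.18 on the Rb1KO arrays, which are compared with the same WT arrays. For chromosomes other than 15, 11 and Y the medians of TKO against WT lay between -0.04 and 0.12.

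With the genes of chromosome 15 split by their order into 3 equal stretches, the median log2 fold changes were 0.26, 0.31 and 0.29, and 70.6%, 77.1% and 76.9% of the genes lay above 0. Under the 17 other settings of the fit the median of chromosome 15 was 0.23 to 0.35, lowest with cyclic loess, where that of all genes above background was -0.01. Of the genes of chromosome 15 above background 190 were higher and 31 were lower. Igfbp6, Gdnf, Slc38a4, Atad2 and Cenpm are among those that rose, with log2 fold changes of 1.82 to 4.57. Cthrc1, Npr3, Adamts12 and Vdr are among those that fell, with log2 fold changes of -5.36 to -1.33. DNA copy number was not measured, and its part in these values was not tested.

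**Figure D5:**
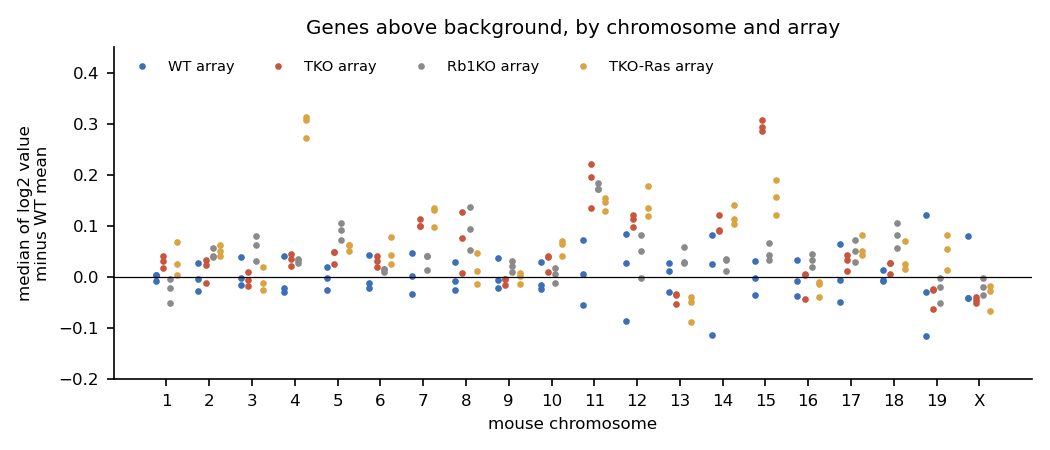
Median over the genes above background of the log2 value minus the WT mean (vertical axis), for each mouse chromosome (horizontal axis), with 1 point per array of the 4 groups. On chromosome 15 the 3 TKO arrays sit at 0.29 to 0.31, above the WT arrays at -0.03 to 0.03.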

How the data were processed

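The 12 Affymetrix mouse arrays hold 4 groups of 3 MEF samples (WT, TKO, Rb1KO and TKO-Ras). Per the submitters' processing notes and the methods, the authors summarised the scans with RMA in Partek Genomics Suite 6.5, and they deposited 1 log2 value per probe set and array; that they are on a log2 scale was taken from their range, 2.18 to 14.92. Of 45101 probe sets 64 controls were left out, 34945 carry 1 gene symbol, 932 several and 9160 none in the platform annotation. Arrays give no read depth, and their number limits the precision. The genome build of the probe annotation is not given in the sources used here, so chromosomes and their gene order were taken from RefSeq by gene.

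All 12 arrays were fitted together in limma 3.58.1 (R 4.3.3; lmFit and eBayes, 8 residual degrees of freedom), with the 2-sided contrast TKO minus WT. The fit was tested on simulated data. Named genes were up to 4 members per list, by size of change among those called without overlap of the groups, with the most abundant one, 2 per family, the 12 largest changes in each direction outside the cell cycle and Dlk1-Dio3 lists, the deleted genes, the most abundant marker per cell type and the 6 promoters. The genes named for families, largest changes and promoters were also drawn only from genes called without overlap. For all genes so drawn, the separation of the groups was a condition of the choice and not a result. Other list members in the text were chosen after their values were seen, as were the splits of genes by chromosome. The members and lists were chosen with earlier results of these data known. Lists had 1173 members, 1100 measured, and are described by counts, with no test of a list. Alternatives were an intensity trend, contrasts without moderation, array weights, a replicate block, a fit of only WT and TKO arrays, median centring, cyclic loess, a background filter, the mean of all probe sets, probe sets without a suffix, adjustment over 1 probe set per gene, other background levels, and each array left out. Python 3.11.15, pandas 2.3.3 and matplotlib 3.10.9 were also used.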

Additional observations from a re-analysis of the deposited data

Results flagged for a closer look

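Probe sets that carry no gene name or several names lie outside the comparisons of genes. Of these 10092 probe sets, 437 were higher and 557 were lower in TKO MEFs than in the WT control arrays, and 114 and 246 of them by 2-fold or more. The groups hold 3 arrays each, too few for a test of single outlying arrays.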

How the results depend on the processing

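The counts of genes called higher (2472) and lower (1802) stayed within 1.5 times under every alternative run, from 1755 with only the WT and TKO arrays to 3404 with array weights for higher genes and from 1206 to 2476 for lower genes in the same settings. With 1 array left out they ranged from 1865 to 2613 and from 1301 to 1981. At 2-fold or more, the counts of 796 and 763 ranged from 659 to 876 and from 608 to 847. Deviations of WT and TKO arrays of the same number correlated at r = 0.15, -0.089 and 0.105, within the -0.221 to 0.208 of unlike numbers. The arrays were not treated as paired, although 3 arrays per group cannot exclude a pairing by number. With the replicate block 2469 genes were higher and 1773 lower. The counts of genes that crossed background (67 up and 141 down) depend on that level: 69 went down with the level at the median of the olfactory receptor probe sets and 123 went up at the 99th percentile, and with 1 array left out they were 79 to 131 and 160 to 216. With the mean of all probe sets Farsa was -0.0248 and Psma1 -0.0454 as log2 fold changes, and without probe sets that carry a suffix Cryab was 0.068, Psen2 0.0689 and Pde1a 0.15. The cause was not tested. Of the 230 named genes, 47 did not pass in some setting where they passed in the main comparison. Of the 118 counts of list and family members, 82 moved by more than 1.5 times in some setting. No alternative was left out.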

Other observations

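Families of transporters, channels and transcription factors were also counted, by the start of their symbols. Of 347 solute carriers 28 were higher and 39 were lower, a balance that turned to 35 and 33 with arrays centred on their median. In the main fit that is 8.07% and 11.2%, against 13.6% higher and 9.90% lower of all genes. Slc38a4, an amino acid transporter, was 8.02, 6.5 and 9.18 on the WT arrays and 11.14, 11.12 and 10.92 on the TKO arrays (log2 fold change 3.16, or 2.46 without WT replicate 2 and 3.80 without WT replicate 3), and Slc27a3, which activates fatty acids, rose by 2.33. The counts were 17 higher without TKO replicate 2 and 24 lower without TKO replicate 1. Of 84 potassium channel genes 4 were higher (4.76%), or 2 without TKO replicate 1 and 8 with arrays centred on their median. Lower were 5 (5.95%), or 3 without WT replicate 1 or TKO replicate 1. Kcnn4, a calcium-activated channel, was 6.23, 6.01 and 6.20 on the WT arrays and 10.38, 10.20 and 9.87 on the TKO arrays (log2 fold change 4.0, adjusted p = 1.2e-06), and Kcnt2 was 6.5, 5.82 and 7.60 against 2.69, 2.99 and 3.73.

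Of 37 forkhead factors 6 were higher (16.2%) and 5 were lower (13.5%), near the 13.6% and 9.90% of all genes. Foxd1, a factor of stromal progenitors, was 9.83, 9.67 and 11.10 on the WT arrays and 7.26, 7.20 and 7.43 on the TKO arrays (log2 fold change -2.90, adjusted p = 1.2e-04), and Foxf2, a mesenchymal factor, rose by 2.54. Foxp2 was at background on each TKO array, a fall of at least 10.3-fold (16.5 without WT replicate 3). Of 21 Sox factors 3 were higher (14.3%) and 1, Sox11, was lower (4.76%). Of 20 Adamts genes, which encode secreted proteases and their relatives, 7 were lower and 2 were higher, or 1 higher without WT replicate 2 or any TKO replicate, with a log2 fold change of -3.94 for Adamts12 (adjusted p = 3.6e-07), and 3 were lower with only the WT and TKO arrays in the fit. Of 37 kinesins, motors that walk on microtubules, 12 were higher and 2 were lower, and 0 were lower without TKO replicate 1 or TKO replicate 2 and 4 without WT replicate 3. Kif21a rose from 7.31, 7.0 and 7.14 to 8.51, 9.0 and 8.78 (log2 fold change 1.61, adjusted p = 3.3e-05), and Kif18b, a motor of the mitotic spindle, by 1.54. Of 72 Rab GTPases and their partners 16 were lower and 9 were higher, and Rab29, found on the trans-Golgi and lysosomes, fell from 8.31, 8.53 and 8.62 to 6.19, 5.98 and 6.39 (log2 fold change -2.30, adjusted p = 7.7e-07). The count of higher Rab genes was 3 without WT replicate 3, TKO replicate 1 or TKO replicate 2, and 4 with cyclic loess.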
